A study of Mus musculus with 4 samples.

Results

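The mitochondrial Slc25 carriers were followed between the protrusions and the cell bodies of fibroblasts. The family was taken as every probe set whose only gene symbol is Slc25a followed by a number, which gave 93 of 45037 non-control probe sets and 44 of 18193 genes. One further probe set, which carries Slc25a37 beside another symbol, was left out. RNA was read on 2 arrays of pseudopodia and 2 arrays of cell bodies from NIH/3T3 cells, an established line of mouse embryonic fibroblasts. All 4 samples came from cells kept without serum above a membrane with pores, of which the underside alone carried fibronectin. Over 1 h they pushed pseudopodia through it. The cells were then fixed in 0.3% formaldehyde for 10 min, and the pseudopodia were scraped from below the membrane or the cell bodies from above it, after the other face had been wiped clean by hand. No unstimulated cells were part of these samples, so the arrays set the compartments of stimulated cells against each other. The comparison asks which RNAs gave a higher intensity in the protrusions and which in the cell bodies. It does not give the amount of an RNA in each compartment.

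Slc25 carriers are small proteins of the mitochondrial inner membrane that bring nucleotides, phosphate, carboxylates, amino acids and cofactors across it. They are encoded in the nucleus, made in the cytosol and handed from the outer membrane to an import complex of the inner membrane. A few relatives lie elsewhere: Slc25a46 sits in the outer membrane and takes part in mitochondrial fusion and fission and in lipid traffic, and Slc25a17 sits in peroxisomes. These arrays read RNA alone, so where the protein of a carrier lies was not measured.

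The deposited values are linear intensities with a floor of 20, which 30.5% to 34.8% of the probe sets of an array shared. Array medians lay between 40.5 and 45.6. Differences are given on the log2(intensity + 1) scale as pseudopodia minus cell body, which understates the change of dim genes. Each gene was read from its brightest probe set, and 11320 genes with a mean intensity of at least 42.0 were tested with limma. The same test was also run on each of 22519 probe sets above that level. The samples of a compartment are described as independent in the design text. As separate cultures are not mentioned, the p-values cover the spread between these samples alone, and that spread may be technical. All 4 arrays were of 1 chip lot and were scanned on 1 day, both pseudopodia arrays before both cell body arrays, so scan order and compartment cannot be told apart. Of 7 fibroblast markers, 6 were above the filter, and Thy1 lay at the floor on every array. Their summed intensity was 29709 to 30718 on the pseudopodia arrays and 43600 to 48539 on the cell body arrays. The markers did not move together. Col1a1, Col1a2, Pdgfra and Pdgfrb had differences of -1.33, -0.69, -1.18 and -1.21 (adjusted p of 0.0176 to 0.0372 in the limma gene fit). Fn1 had -0.64 and Vim -0.098 (adjusted p of 0.0740 and 0.661 in the same fit). Vim read 11544 to 12764, near the top of the scale (array maxima 13766 to 15025). How far that limits its difference was not tested. At an adjusted p of 0.05, 8.69% of all genes were lower in pseudopodia. Of 4 epithelial markers, 3 were above the filter, Cdh1, Epcam and Krt8, and Krt18 lay at the floor on every array. These did not share a direction, with differences of 0.39 for Cdh1, 0.16 for Krt8 and -0.86 for Epcam. Their adjusted p was 0.410, 0.748 and 0.0721 in the limma gene fit. Epcam read 248 and 348 on the pseudopodia arrays, against 604 and 471 on the cell body arrays, at its brightest probe set. Its other probe set read at most 40.1. The epithelial markers summed to 619 to 646 on the pseudopodia arrays and 698 to 941 on the cell body arrays. Of the haematopoietic markers, Ptprc lay at or near the floor. Cd68 read 32.3 and 27.2 on the pseudopodia arrays, against 48.7 and 59.1 on the cell body arrays, and was below the filter. Ptprc and Cd68 had sums of 47.2 to 52.3 on the pseudopodia arrays and 71.5 to 79.1 on the cell body arrays. The part of other cell types in the results below was not tested.

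As a family, the carriers differed little between the compartments. Of the 35 carrier genes tested, 1 rose in pseudopodia, Slc25a46, and 0 fell, at a Benjamini-Hochberg adjusted p of 0.05 in the limma fit over all genes. At an unadjusted p under 0.05 there were 3 of the 35, against 31.4% of all genes. At the adjusted p of 0.05, 14.6% of all 11320 genes were called, with 5.92% higher and 8.69% lower in pseudopodia. The median difference was -0.0044 for the carriers, against -0.0020 for all genes, and quantile normalization turned its sign, at 0.071 for the carriers and 0.053 for all genes. In size, the median was 0.14 for the carriers and 0.28 for all genes. A difference smaller than 0.5 was found for 31 of 35 carriers (88.6%), against 71.3% of all genes. The arrays of the compartments did not overlap at 16 of 35 carriers, 8 in each direction, whereas they did not overlap at 60.8% of all genes, 29.5% with pseudopodia above and 31.4% with pseudopodia below. No carrier gene was at least 2-fold apart at its brightest probe set, as 8.83% of all genes were with arrays that did not overlap. The other 9 genes had no probe set above the filter and were not tested.

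**Figure D1:**
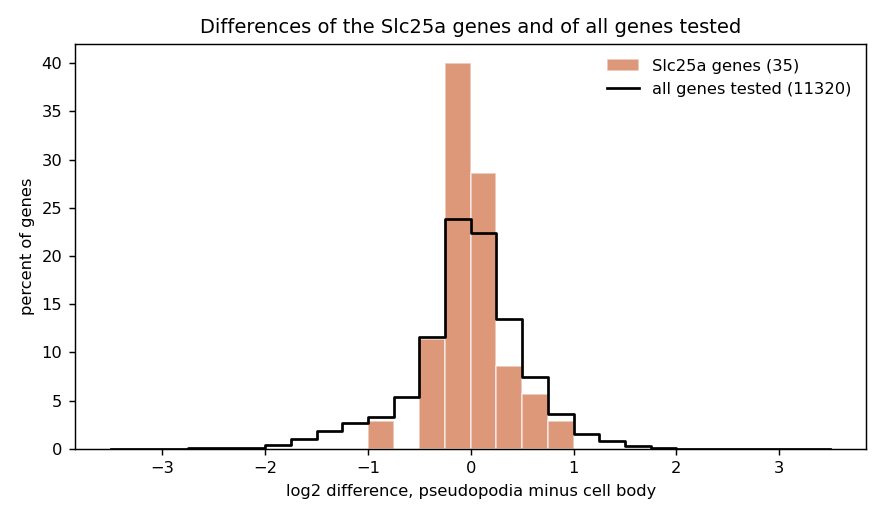
Distribution of log2 differences (x axis, pseudopodia minus cell body) as a percentage of genes (y axis) for the 35 Slc25a genes (bars) and for all 11320 genes tested (line). The carriers lie between -0.75 and 0.82 with 31 of 35 inside 0.5 of zero, while the line for all genes runs further out on both sides.

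The spread between arrays was also read for the carriers alone. For the 35 carriers, log2 values of a pseudopodia and a cell body array differed with an SD of 0.33 to 0.45. That SD was 0.34 between the pseudopodia arrays and 0.27 between the cell body arrays. Over all tested genes, it was 0.58 to 0.63 across compartments, against 0.35 and 0.36 within them. These figures describe the 4 arrays across genes, which are not independent replicates, and were not tested.

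Slc25a46, the outer membrane member, was the carrier that rose. Its brightest probe set (1448970_at) read 365 and 375 on the pseudopodia arrays, against 246 and 216 on the cell body arrays. Both pseudopodia arrays lay above both cell body arrays, and the spread within a compartment was small beside the gap. The means were 370 ± 6.88 in pseudopodia and 231 ± 21.3 in cell bodies (SD, n = 2), a difference of 0.68 (SE 0.14, 95% interval 0.32 to 1.04) or 1.60-fold. The adjusted p was 0.0404 in the limma gene fit. In the limma fit over all probe sets, its adjusted p was 0.0560, which missed the threshold.

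The other probe set of Slc25a46 (1418134_at) showed a wider gap. It read 321 and 264 on the pseudopodia arrays, against 104 and 91.7 on the cell body arrays. That is 292 ± 40.3 in pseudopodia and 97.8 ± 8.71 in cell bodies (SD, n = 2), with no overlap. The difference was 1.56 (SE 0.17, 95% interval 1.11 to 2.02), or 2.96-fold, with an adjusted p of 0.0241 in the limma probe set fit. It was the 1 carrier probe set called among 69 tested, where 11.7% of all probe sets were called, 4.3% as higher in pseudopodia. Whether the probe sets of Slc25a46 differ from each other in their response was not tested.

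The call on Slc25a46 rests on all 4 arrays. On any 3 of the arrays, limma made 0 calls over the whole table, with 2792 to 2883 genes at an unadjusted p under 0.05, and the brightest probe set of Slc25a46 kept a difference of 0.59 to 0.77 with adjusted p of 0.102 to 0.152. Of the RNA integrity controls on the same arrays, the signal from the 3' end of Actb exceeded that from its 5' end by 0.56 and 0.65 (log2) in pseudopodia, against 0.37 and 0.36 in cell bodies. For Gapdh the same quantity was -0.075 and -0.066 in pseudopodia, against -0.095 and -0.098 in cell bodies. Their part in the result was not tested. Since each array reads RNA pooled over many cells, more protrusions with the RNA and more RNA in each cannot be told apart.

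The 33 other tested carriers, counted here as inner membrane members, ran from -0.75 to 0.82 with a median of -0.0044. Of these, 15 lay above 0 and 18 below, and 0 were called, with adjusted p of 0.0613 to 0.999 in the limma gene fit. Over all genes, 14.6% were called. At that share, 0 calls in a substrate class of a few genes says little about the class. Quantile normalization turned the sign of 7 of them, Slc25a1, Slc25a10, Slc25a11, Slc25a12, Slc25a16, Slc25a33 and Slc25a39, and median centring that of Slc25a13 and Slc25a32. The peroxisomal Slc25a17 read 234 and 178 on the pseudopodia arrays, against 265 and 218 on the cell body arrays. Its arrays overlapped, and its difference was -0.23 (SE 0.20, 95% interval -0.75 to 0.28). Another Slc25a17 probe set had 29.1 and 43.3 on the pseudopodia arrays against 20 and 26.3 on the cell body arrays, at or near the floor, and was not tested.

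**Figure D2:**
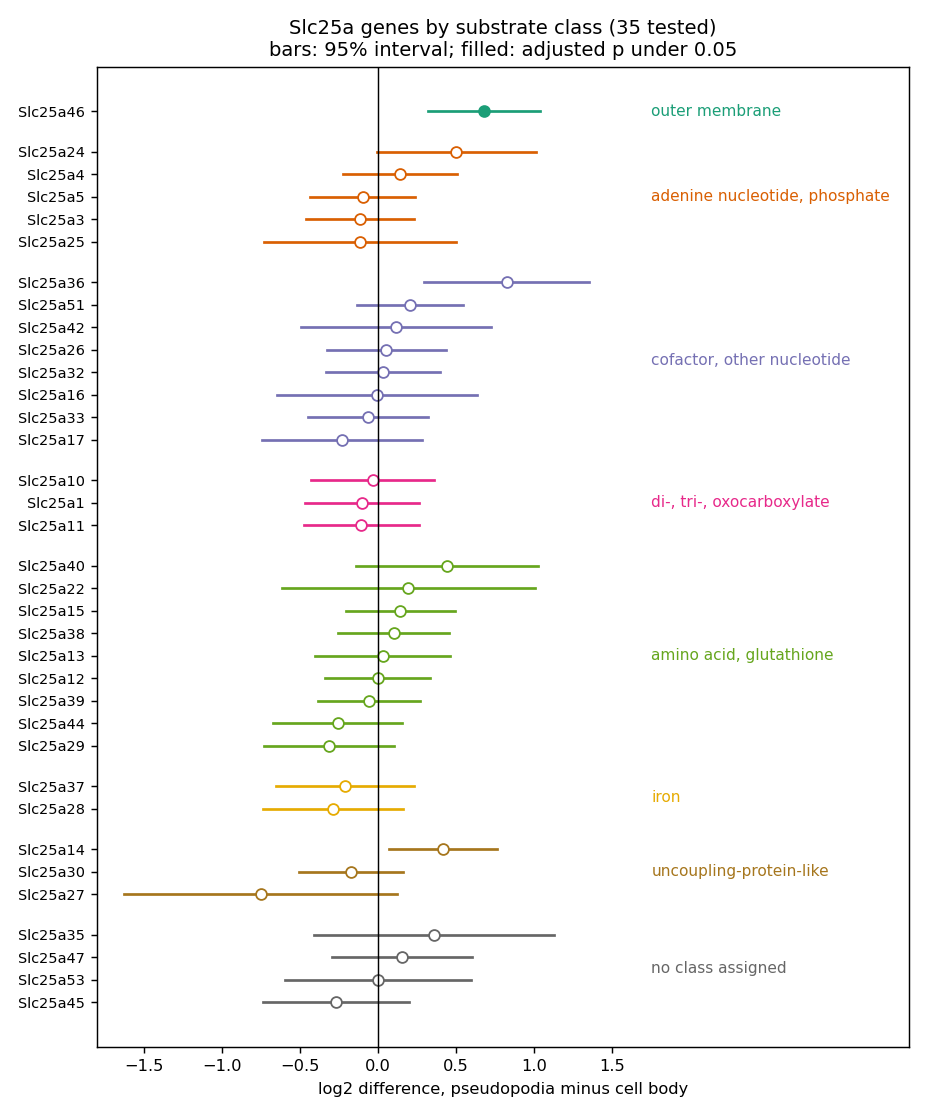
Log2 difference (x axis, pseudopodia minus cell body) of each tested Slc25a gene at its brightest probe set, grouped by substrate class, with points for the estimate and bars for the 95% interval of the limma gene fit. The filled point is Slc25a46, at 0.68, and all open points had an adjusted p of 0.0613 or more.

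Carriers of adenine nucleotides and phosphate supply the substrates of oxidative phosphorylation and export its product. Of 8 genes with probe sets, 5 were tested and 0 were called, against 14.6% of all genes, with a median of -0.10. The phosphate carrier Slc25a3 read 10739.6 and 9758 on the pseudopodia arrays, against 11214 and 10963 on the cell body arrays. The pseudopodia arrays were the lower ones without overlap, but the difference was -0.12 (SE 0.13, 95% interval -0.46 to 0.23), at a probe set whose intensity lay near the top of the scale (array maxima 13766 to 15025), and how far that limits the difference was not tested. The ADP/ATP carrier Slc25a4 had differences of 0.11 to 0.14 at its 3 tested probe sets, and another lay at the floor on all arrays.

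The ADP/ATP carrier Slc25a5 had 8 tested probe sets, with differences of -0.16 to 0.058. The brightest of them had 6097 and 5668 on the pseudopodia arrays, against 6297 and 6299 on the cell body arrays. That is a difference of -0.10 (SE 0.13, 95% interval -0.44 to 0.24). The interval does not reach a 2-fold difference in either direction. Slc25a4 and Slc25a5 are close paralogs, and several of their probe sets are of a type that can match more than 1 transcript, so their signals may be shared.

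The calcium-regulated ATP-magnesium/phosphate carriers were less even among themselves. Slc25a24 read 1983 and 2042 on the pseudopodia arrays, against 1208 and 1673 on the cell body arrays. Its pseudopodia arrays lay above without overlap, and its difference of 0.50 (SE 0.20, 95% interval -0.0060 to 1.01) had an adjusted p of 0.163 in the limma gene fit. It was 0.27 without cell body replicate 1 and 0.74 without cell body replicate 2. A dim probe set of Slc25a24, with 84.4 and 23.7 on the pseudopodia arrays against 53.3 and 49.7 on the cell body arrays, had a difference of -0.19 and overlapped. Slc25a25 had differences of -0.12, -0.33 and 0.26 at its 3 probe sets, of which 0 were called. The untested genes of the whole adenine nucleotide and phosphate class, Slc25a23, Slc25a31 and Slc25a41, read at most 22.9 on any array.

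Among the carriers of cofactors and other nucleotides, 8 genes were tested and 0 were called, against 14.6% of all genes. Their median was 0.043, with a range from -0.23 to 0.82. The lower end was the peroxisomal Slc25a17, which is counted in this class by substrate, and the next lowest was Slc25a33, at -0.065. The upper end was Slc25a36, a pyrimidine nucleotide carrier. Its brightest probe set (1419657_a_at) read 327 and 353 on the pseudopodia arrays, against 227 and 161 on the cell body arrays. The groups did not overlap, and the cell body arrays differed more from each other than the pseudopodia arrays did. The means were 340 ± 18.4 in pseudopodia and 194 ± 46.7 in cell bodies (SD, n = 2), a difference of 0.82 (SE 0.20, 95% interval 0.29 to 1.35), or 1.77-fold. The adjusted p of 0.0613 in the limma gene fit missed the threshold.

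The call on Slc25a36 depended on the setting. Its adjusted p passed with a pseudocount of 50 (adjusted p = 0.0301), a stricter filter (0.0328), quantile normalization (0.0424) and median centring (0.0252), and over all alternatives that kept 4 arrays it ran up to 0.233. With 1 array left out, the difference ran from 0.58 without cell body replicate 2 to 1.07 without cell body replicate 1, with adjusted p of 0.0810 to 0.195. Its dimmer probe set (1419656_at) read 79.2 and 65.8 on the pseudopodia arrays, against 44.1 and 26.2 on the cell body arrays, a difference of 1.06 (SE 0.29, adjusted p = 0.0851 in the limma probe set fit). That probe set passed the filter through the pseudopodia arrays, since its cell body mean of 35.1 lay below the filter. With Slc25a46 (1418134_at), it made 2 of 69 carrier probe sets at least 2-fold apart with no overlap, against 10.6% of all probe sets. The remaining Slc25a36 probe set overlapped at 33.3 to 44.8 and was not tested.

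**Figure D3:**
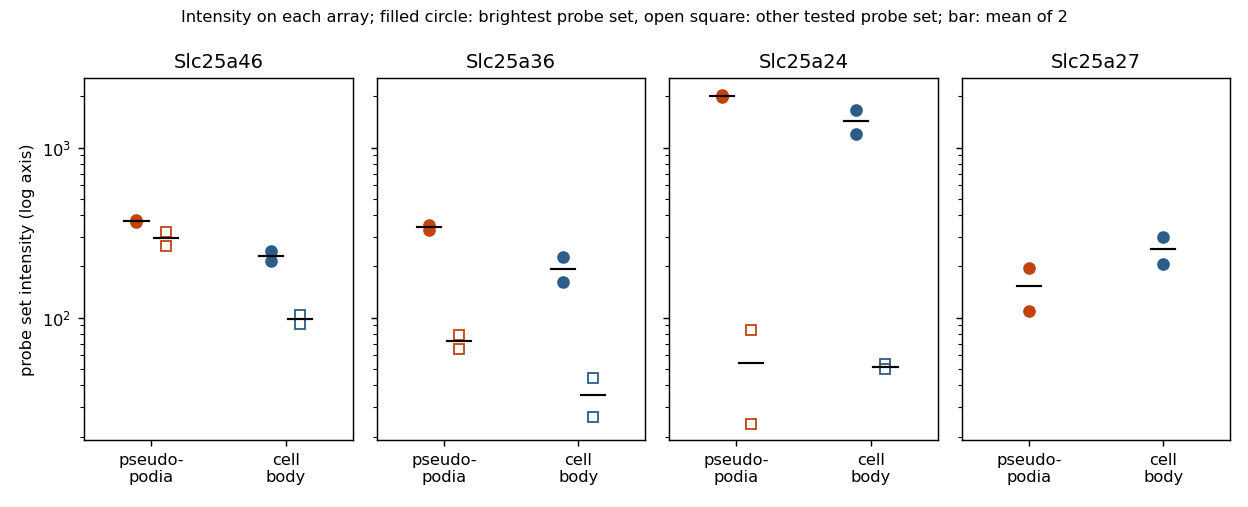
Intensity of each array (y axis, log scale) in pseudopodia (left) and cell bodies (right) for the tested probe sets of Slc25a46, Slc25a36, Slc25a24 and Slc25a27, with short bars for the mean of 2 arrays. Both probe sets of Slc25a46 and of Slc25a36 are higher on both pseudopodia arrays, while the dim probe set of Slc25a24 overlaps and Slc25a27 is lower on the pseudopodia arrays.

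Slc25a33, the other pyrimidine nucleotide carrier, had overlapping arrays. It read 1537 and 1352 on the pseudopodia arrays, against 1603 and 1419 on the cell body arrays, a difference of -0.065 (SE 0.15, 95% interval -0.45 to 0.32). The difference between these genes was not tested. The NAD+ carrier Slc25a51 had differences of 0.20, 0.019 and -0.41 at its 3 probe sets, of which 0 were called. Slc25a32, linked to folate and FAD transport, had 0.033 and 0.16. The S-adenosylmethionine carrier Slc25a26 had 0.053 and 0.29, and the coenzyme A carrier Slc25a42 had 0.11 and 0.29, in both cases with overlapping arrays.

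The carboxylate carriers lay close to 0 at their brightest probe sets. Slc25a1 exports citrate, Slc25a10 exchanges dicarboxylates for phosphate, and Slc25a11 exchanges oxoglutarate for malate. All 3 tested genes lay between -0.11 and -0.035, or above 0, at 0.0028 to 0.072, with quantile normalization. The arrays overlapped at all 4 of their probe sets. Slc25a1 read 3363 and 3116 on the pseudopodia arrays, against 3699.8 and 3280.4 on the cell body arrays, with a 95% interval of -0.47 to 0.26.

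The class of amino acid, glutathione and acylcarnitine carriers had 9 tested genes and 0 calls, where 14.6% of all genes were called. The median was 0.029 and the range -0.32 to 0.44. At the upper end was Slc25a40, a relative of the glutathione carrier Slc25a39, with 623 and 502 on the pseudopodia arrays against 488 and 347 on the cell body arrays. Its groups were only just apart, and the difference of 0.44 (SE 0.22) had an adjusted p of 0.259 in the limma gene fit. It was 0.19 without cell body replicate 2 and 0.69 without cell body replicate 1. Slc25a39 itself had differences of -0.060 to 0.11 at its 4 brighter probe sets, the brightest at 9116 and 8981 on the pseudopodia arrays against 9368 and 9504 on the cell body arrays. Its remaining, dim probe set had 0.56 and an adjusted p of 0.340.

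The aspartate/glutamate carriers of the malate-aspartate shuttle lay close to 0. Slc25a12 read 2152 and 2133 on the pseudopodia arrays, against 2066 and 2235 on the cell body arrays, a difference of -0.0044 (95% interval -0.34 to 0.33), and Slc25a13 had 0.029. The glycine carrier Slc25a38, needed for heme synthesis, had 0.098, the ornithine carrier Slc25a15 had 0.14 and the glutamate carrier Slc25a22 had 0.19. The pseudopodia arrays of Slc25a22 lay far apart, at 408 and 738.

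Slc25a44, a carrier of branched-chain amino acids, had arrays that did not overlap at 2 of its 3 probe sets. The dimmer of these (1433448_at) read 203 and 205 on the pseudopodia arrays, against 279 and 290 on the cell body arrays. The difference there was -0.48 (SE 0.14), with an adjusted p of 0.0977 in the limma probe set fit, and the other probe sets had -0.26 and 0.29. Slc25a29, a carrier of basic amino acids, had -0.32 at its brightest probe set and -0.20 to 0.097 at the other 4. Both probe sets of Slc25a20, the carnitine-acylcarnitine carrier of fatty acid oxidation, lay at the floor on all 4 arrays, which bounds its level but gives no difference. Slc25a2 also lay at the floor throughout, and Slc25a18 read 35.2 to 52.2.

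Both mitoferrins, which bring iron into mitochondria, had differences below 0. Slc25a28 read 829 and 1067 on the pseudopodia arrays, against 1115 and 1184 on the cell body arrays, a difference of -0.29 (SE 0.17, adjusted p = 0.331 in the limma gene fit). Slc25a37 had -0.21 (SE 0.17, adjusted p = 0.465 in the limma gene fit) with overlapping arrays. With 1 array left out, Slc25a28 ran from -0.47 without pseudopodia replicate 2 to -0.11 without pseudopodia replicate 1, and Slc25a37 from -0.38 without cell body replicate 1 to -0.047 without cell body replicate 2.

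The relatives of the uncoupling proteins had a wide range at their brightest probe sets, with differences from -0.75 to 0.42. Of 3 tested genes, 0 were called, against 14.6% of all genes. Slc25a27 read 110 and 196 on the pseudopodia arrays, against 206 and 298 on the cell body arrays. The groups only just missed overlapping, and the difference of -0.75 (SE 0.34) had an adjusted p of 0.209 in the limma gene fit. It ran from -1.17 without pseudopodia replicate 2 to -0.34 without pseudopodia replicate 1. Without cell body replicate 2 it was -0.49. The 3 other probe sets of Slc25a27 lay at the floor on at least 2 of 4 arrays each.

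Slc25a14 lay above 0 within this class. It read 276 and 268 on the pseudopodia arrays, against 214 and 194 on the cell body arrays, a difference of 0.42 (SE 0.13, 95% interval 0.070 to 0.76) with an adjusted p of 0.109 in the limma gene fit. Slc25a30 had probe sets that went both ways without overlap. The brightest read 1842 and 1909 on the pseudopodia arrays, against 2064 and 2176 on the cell body arrays (-0.18). Another (1450018_s_at), of the type that can match several transcripts, read 1926 and 2270.2 on the pseudopodia arrays, against 1585 and 1734 on the cell body arrays (0.33). The next (1420835_at) read 543 and 492 on the pseudopodia arrays, against 724 and 702 on the cell body arrays (-0.46, adjusted p = 0.114 in the limma probe set fit).

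Among the 7 carriers with probe sets and no class assigned here, 4 were tested and 0 called, against 14.6% of all genes. Their differences ran from -0.27 (Slc25a45) to 0.36 (Slc25a35). Slc25a35 ran from -0.035 without cell body replicate 2 to 0.75 without cell body replicate 1, and Slc25a45 from -0.44 without pseudopodia replicate 1 to -0.10 without pseudopodia replicate 2. Slc25a53 had -0.00064 at its brightest probe set. Its other probe set (1459914_at) read 54.0 and 61.5 on the pseudopodia arrays, against 36.3 and 33.7 on the cell body arrays, a difference of 0.70 (SE 0.15, adjusted p = 0.0540 in the limma probe set fit). It too passed the filter through the pseudopodia arrays. Slc25a34, Slc25a48 and Slc25a54 read at most 52.5 on any array.

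Probe sets of a gene did not always go the same way. Of the 16 carrier genes with 2 or more tested probe sets, 9 had differences of both signs: Slc25a5, Slc25a24, Slc25a25, Slc25a29, Slc25a30, Slc25a39, Slc25a44, Slc25a51 and Slc25a53. Within these 9 genes, the lowest and highest difference lay between 0.22 (Slc25a5) and 0.80 (Slc25a30) apart, and 0 of their probe sets were called. Slc25a46 was of one sign at both probe sets, as were all tested probe sets of Slc25a4, Slc25a10, Slc25a26, Slc25a32 and Slc25a42. Both tested probe sets of Slc25a36 were above 0, but the dimmer one passed the filter through the pseudopodia arrays. Over the 69 tested probe sets, 35 lay above 0 and 34 below, and arrays did not overlap at 32, against 59.6% of all probe sets.

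**Figure D4:**
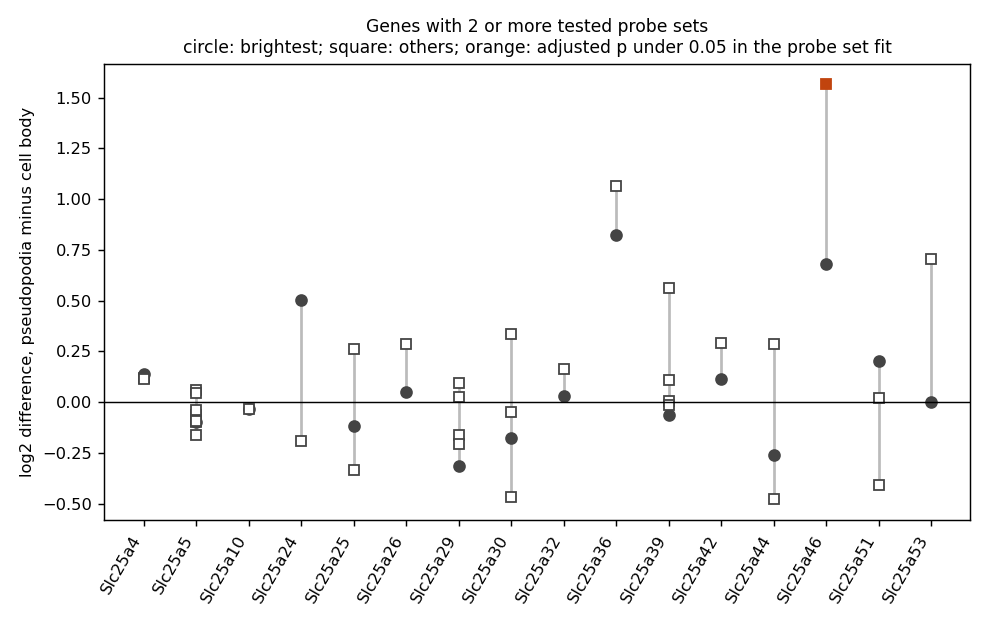
Log2 difference (y axis, pseudopodia minus cell body) at each tested probe set of the 16 Slc25a genes with 2 or more of them (x axis), with circles for the brightest probe set and squares for the others. The called probe set (orange) belongs to Slc25a46 at 1.56, and the lines of 9 genes reach across 0.

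Other genes of carrier transport and import were read from lists for comparison. Of the family members under other symbols, Mtch1, Mtch2 and Ucp3 were tested. Of these, 0 were called in the gene fit, where 14.6% of all genes were called. Mtch1 and Mtch2 also lie in the outer membrane, where Mtch2 inserts other proteins. Mtch1 averaged 4469 ± 18.0 in pseudopodia and 4343 ± 363 in cell bodies (SD, n = 2), a difference of 0.043 (SE 0.14). Mtch2 had -0.054 at its brightest probe set. The difference between these relatives and Slc25a46 was not tested. A dim Mtch2 probe set (1430969_at) fell, at 24.0 and 26.1 on the pseudopodia arrays against 129 and 88.4 on the cell body arrays (-2.04, SE 0.23, adjusted p = 0.0241 in the limma probe set fit), and passed the filter through the cell body arrays. The 3 other tested probe sets of Mtch2 had -0.11 to 0.52 and were not called, where 11.7% of all probe sets were called.

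Of 12 genes of the carriers' import route, 1 rose and 0 fell in the gene fit, where 5.92% of all genes were called higher and 8.69% lower. The one was Tomm70a, the outer membrane receptor that takes up carrier precursors from the cytosol. It read 1447 and 1445 on the pseudopodia arrays, against 684 and 810.2 on the cell body arrays, with no overlap. The difference was 0.96 (SE 0.15, adjusted p = 0.0224 in the limma gene fit), and its other tested probe sets had 0.62 and 0.56 (adjusted p = 0.0879 and 0.110 in the limma probe set fit). Of the 12 genes, 4 lay above 0 and 8 below, with a median of -0.045. The lowest was Tomm40, with 1609 and 1636 on the pseudopodia arrays against 2005 and 2311 on the cell body arrays. Its difference was -0.41 (SE 0.14, adjusted p = 0.128 in the limma gene fit), and Timm29 had -0.25. Timm22, the pore of the carrier import complex, had -0.087, and the small chaperones of the intermembrane space Timm10 and Timm9 had -0.048 and 0.070. Timm8a1, another of these chaperones, had 0.62 (adjusted p = 0.0503 in the limma gene fit), and 0.15 (adjusted p = 0.597 in the limma probe set fit) at its other probe set. A dim Timm9 probe set (1428010_at) fell by 1.67 (adjusted p = 0.0291 in the limma probe set fit), with 1 pseudopodia array at the floor, and passed the filter through the cell body arrays.

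Other transporters of mitochondrial membranes gave 0 calls among 10 tested genes, where 14.6% of all genes were called, with a median of 0.12 and a range from -0.35 to 0.60. The outer membrane porins Vdac1, Vdac2 and Vdac3 had -0.042, -0.080 and 0.15. The pyruvate carrier subunit Mpc1 had 0.095, the calcium uniporter Mcu 0.13, and the serine transporter Sfxn1 0.47 (adjusted p = 0.127 in the limma gene fit). The porins read from 3882 to 6792 on all arrays at their brightest probe sets.

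**Figure D5:**
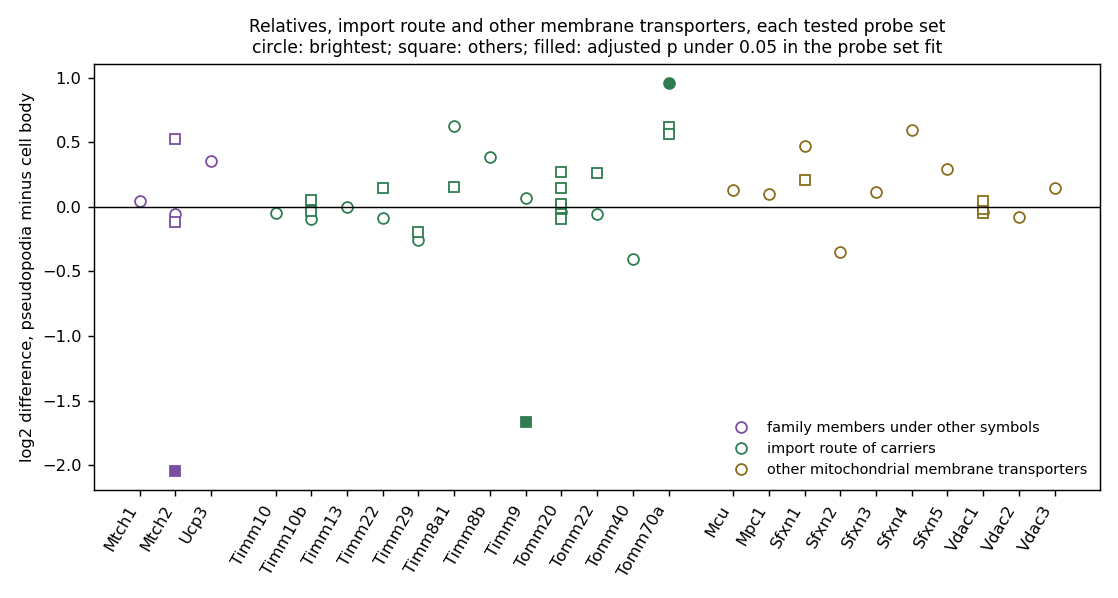
Log2 difference (y axis, pseudopodia minus cell body) at each tested probe set of family members under other symbols, of the carrier import route and of other mitochondrial membrane transporters (x axis). Filled symbols passed in the probe set fit: Tomm70a at 0.96, and dim probe sets of Mtch2 at -2.04 and of Timm9 at -1.67, while the brighter tested probe sets lie at -0.11 to 0.52 for Mtch2 and at 0.070 for Timm9.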

How the data were processed

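Affymetrix Mouse430_2 arrays, named in the array records, were read for 2 pseudopodia and 2 cell body samples. The deposited values are linear probe set intensities with a floor of 20; the software, the probe summary and the array scaling are not named in those records or protocols. No further scaling was applied. Per the labels' protocols, Trizol LS was used for extraction and biotin as the label. Control probe sets (64) entered no test. The platform annotation gives 1 gene symbol to 34945 of the rest, several to 932 and none to 9160. With limma 3.58.1 in R 4.3.3 (lmFit, eBayes, two-sided, no covariate), log2(intensity + 1) was compared over all genes at their brightest 1-symbol probe set and over all probe sets, kept where the mean reached the median over probe sets that are no controls (log2 5.42). Adjusted p-values are Benjamini-Hochberg over each whole table. The gene fit had 2 residual and 2.90 prior degrees of freedom. A permutation of 4 arrays cannot give a two-sided p under 33.3%, so none was run.

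Genes were named with values where they were called, differed at least 2-fold without overlap, were Slc25a46, Slc25a17 or the 3 brightest members, had probe sets of both signs, or were among up to 3 further bright members per class. Others outside this rule were named as well, among them Slc25a13, Slc25a26, Slc25a38, Slc25a40 and Slc25a42. The family, the substrate classes and the other lists were chosen with earlier results of these data known. The fit was tested on simulated data. Alternatives changed the pseudocount, filter, scaling, choice of probe set, replicate block and arrays used. No coordinates are given, since the annotation's build is not stated in the files. The number of arrays limits the precision of every value.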

Additional observations from a re-analysis of the deposited data

How the results depend on the processing

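Among the 35 tested carriers, 441 of 451 gene values under the alternatives kept their side of the threshold, 5 lost the call (all Slc25a46) and 5 gained one, and 0 called values reversed. The sign of 15 carriers, of which the largest had a difference of 0.36 in size, turned under some alternative without a call, 12 of them with 1 array left out. The number of carrier genes called was 1 as reported; it was 2 with a pseudocount of 50, a stricter filter (intensity of 100), quantile normalization or median centring, where Slc25a36 was added. Over all genes these settings called 20.1%, 24.5%, 15.3% and 17.8%, against 14.6% in the reported fit. Without a filter it was 0 (6 at an unadjusted p under 0.05), with an adjusted p of 0.108 for Slc25a46, and limma then called 2 of 18193 genes. The number of carrier probe sets called was 1, against 3 with a pseudocount of 50, a stricter filter, quantile normalization or median centring, and 0 without a filter. The 3 were not the same throughout. With a pseudocount of 50 or a stricter filter, they were both of Slc25a46 and the brightest of Slc25a36. Quantile normalization called both of Slc25a46 and 1459914_at of Slc25a53, which passed the reported filter through the pseudopodia arrays. Median centring called 1418134_at of Slc25a46 and both tested ones of Slc25a36. In the reported fit, 11.7% of all probe sets were called. With 1 array left out, limma called 0 genes, 0 carrier genes and 0 carrier probe sets in each of the 4 fits, with 3 to 4 carrier genes at an unadjusted p under 0.05, and the carriers' median ran from -0.037 to -0.014. That median was 0.071 with quantile normalization and -0.038 with median centring, where the median of all genes was 0.053 and -0.036. With each 1-symbol probe set tested on its own, 2657 were called. Quantile normalization gave 48.4% of calls over all genes as higher in pseudopodia, against 40.5% in the reported fit.

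The replicate numbers are in the labels, but nothing says that they mark a shared culture. The deviations of same-numbered arrays correlated at 0.34 across genes. With the replicate block, 2202 genes (19.5%) were called against 1654, the carrier genes called were 2 (Slc25a46, and Slc25a27 at an adjusted p of 0.0353) and the carrier probe sets called were 2 (1418134_at of Slc25a46, and 1419656_at of Slc25a36 at an adjusted p of 0.0382).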
